A study of Zea mays with 18 samples.

Results

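Knotted1 induced1 (Zm00001d022630) is a maize gene of the ribonuclease T2 family. It was picked by its identifier, as 1 gene of the 50118 in the deposited expression table, with earlier results of these data known, and its level is described here over all 18 libraries. Its own values chose it, so they are given as a description and with no test. The libraries came from leaves of seedlings at the three-leaf stage of a zmzfp69 line and of the inbred line B73, the control, sampled after 0, 24 and 48 h at 4 °C. The 6 groups were mutant at 0, 24 and 48 h and B73 at 0, 24 and 48 h, with 3 biological replicates each, every replicate being made of 50 seedlings per the labels. The line is named for a zinc finger transcription factor gene, and label fields differ in calling it a mutant or a knock-down. By its titles the line itself carries the B73 background. How many independent events it stands for is not stated. All seedlings had grown at 25 °C with 16 h of light and 8 h of dark. No library was labelled as kept warm for 24 or 48 h, so that time and cold cannot be told apart.

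Ribonucleases of the T2 family cut single-stranded RNA and are made with a signal peptide that sends them to the vacuole or out of the cell. In plants the S-like members, which play no part in pollen rejection, are known from senescing, wounded and phosphate-starved tissue, where they release phosphate and nucleosides from RNA. The gene is named after Knotted1, a homeodomain protein of the KNOX class that keeps shoot meristem cells undifferentiated and is normally silent in leaves.

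The deposited table places the gene on chromosome 7 at 181798165 to 181799397 on the plus strand, with a length of 964 bases, as a protein-coding gene whose annotation is the ribonuclease T2 family domain. Contig names in the table carry the name of the B73 version 4 assembly, while no source used here states the build. The gene lay near the end of its chromosome, 52109 bp after the gene before it and 4024 bp ahead of the next, and 0 annotated genes overlapped it. Reads per library ran from 14.8 to 19.1 M. On the first principal component of the 23141 genes tested, with 42.2% of their variance, 2 libraries stood apart from their groups. Mutant replicate 2 at 24 h lay at -68.6, against 25.6 and 40.6 for the rest of its group. The mutant libraries at 0 h lay at -98.3 to -93.2. B73 replicate 1 at 48 h lay at 106, against 46.6 and 45.3 for the rest of its group. For mutant replicate 2 at 24 h a label field other than the title gives 0 h. That field also gives 0 h for mutant replicate 3 at 24 h and replicates 2 and 3 at 48 h, which lay at 40.6, 111 and 112. Which field is right was not tested. The level of the gene that names the line was not checked, since 0 gene names in the table matched it. The tissue label was checked on marker genes fixed by name. Phosphoenolpyruvate carboxylase1, the first enzyme of C4 carbon fixation, was between 1519 and 16772 FPKM in every library, and of 42 leaf genes 5 had no read. The shoot meristem markers summed to at most 0.131 FPKM in any library, with liguleless4 the highest of them.

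Knotted1 induced1 was among the abundant leaf transcripts of the mutant at every time, and in B73 its level was far lower at 48 h than at 0 h. FPKM, the authors' unit, counts fragments relative to gene length and library size, so that levels of different genes can be compared. In mutant leaves the 3 libraries had 858, 855 and 689 FPKM at 0 h, 1934, 438 and 309 FPKM at 24 h, and 1998, 2102 and 412 FPKM at 48 h. In B73 leaves they had 736, 522 and 189 FPKM at 0 h, 106, 536 and 72.9 FPKM at 24 h, and 19.3, 30.4 and 63.2 FPKM at 48 h. The mutant libraries overlapped the B73 libraries at 0 and 24 h and lay wholly above them at 48 h. Behind these values were 4002 to 34512 recovered reads in each mutant library and 225 to 16870 in each B73 library, so the spread between replicates far outweighed counting error.

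**Figure D1:**
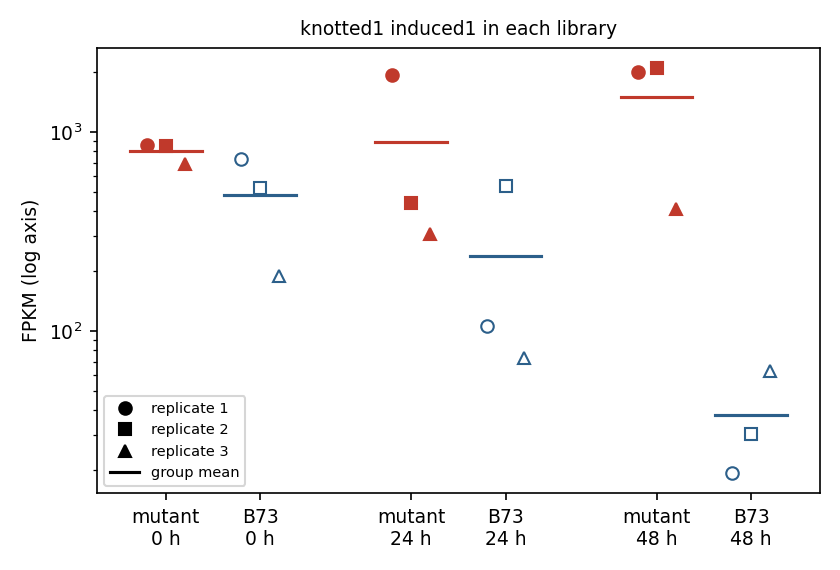
Level of Knotted1 induced1 in each library, in FPKM on a log axis, with the mutant left of B73 at each time. Points are libraries, with the shape giving the replicate number, and lines are arithmetic group means. The 3 mutant libraries at 48 h (412 to 2102 FPKM) sit above the 3 B73 libraries (19.3 to 63.2 FPKM), while at 0 and 24 h the genotypes overlap.

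Group means were 801 ± 97.0, 893 ± 903 and 1504 ± 947 FPKM in the mutant at 0, 24 and 48 h (SD, n = 3 each). They were 482 ± 276, 238 ± 258 and 37.6 ± 22.8 FPKM in B73 at the same times. The gene varied widely among replicates, with a pooled SD within groups of 1.14 on the log2 scale and a highest library up to 7.34 times the lowest of its group, in B73 at 24 h. Only the mutant at 0 h was tight, its highest library being 1.25 times its lowest. In 8 of the 18 libraries the gene ranked among the 100 highest of all 50118 by FPKM, and in the mutant it never ranked below place 308. In B73 at 48 h its places were 5035, 2985 and 1411.

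Ordered by their means, the groups ran from the mutant at 48 h through the mutant at 24 h and at 0 h to B73 at 0 h, 24 h and 48 h. Each of these groups overlapped its neighbour in the order except the last pair. B73 at 48 h lay below B73 at 24 h in all 9 pairs of libraries, with a mean 6.33-fold lower. The order of the mutant groups does not rest on differences beyond their spread, as the mutant at 24 h was above the mutant at 0 h in 3 of 9 library pairs and the mutant at 48 h above the mutant at 0 h in 6 of 9.

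The difference between the genotypes is given on the scale of log2(FPKM + 1), mutant minus B73. It was 0.93 at 0 h, 1.99 at 24 h and 5.12 at 48 h, each with a standard error of 0.86 from the limma model of 6 group means over 18 libraries. The 0 h value was 0.36 without B73 replicate 3 at 0 h, and the 24 h value was 1.19 without mutant replicate 1 at 24 h and 2.85 without B73 replicate 2 at 24 h. The mutant library was the higher in 8 of 9 pairs at 0 h, 7 of 9 at 24 h and 9 of 9 at 48 h. The ratio of mean FPKM, mutant over B73, was 1.66 at 0 h, 3.75 at 24 h and 40.0 at 48 h. Set in order with all 23141 genes, the 48 h difference was the 4th highest, and the difference averaged over the times, 2.68 with a standard error of 0.49, was the 9th highest. Adjusted p-values under 0.05 were reached by 0.212% of all genes at 0 h, 0.411% at 24 h, 0.333% at 48 h and 0.653% on average, and no p is given for the gene itself.

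Against 0 h, B73 had a lower level at 48 h and the mutant had levels within its spread. In B73 the log2 difference was -1.37 at 24 h and -3.60 at 48 h, and the B73 libraries at 48 h lay below those at 0 h in all 9 pairs, with a mean 12.8-fold lower. In the mutant it was -0.32 at 24 h and 0.59 at 48 h, both smaller than the standard error of 0.86. Both differences of a genotype share its 0 h libraries. The 48 h change in the mutant less that in B73 was 4.19 with a standard error of 1.21, the 15th highest of 23141 genes, and the same quantity at 24 h was 1.05. In B73 the difference at 24 h was -2.24 without B73 replicate 2 at 24 h and -0.81 without B73 replicate 3, and in the mutant the difference at 48 h was 0.19 without mutant replicate 2 at 48 h and 1.36 without mutant replicate 3.

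The mutant change from 0 h depended on the scaling. The total by which the deposited FPKM had been scaled was 0.672 to 1.5 times the reads recovered per library, and was on average lowest in the mutant at 48 h. Set against the total of recovered reads, as RPM (reads set to a common library total), the gene averaged 979 ± 101, 957 ± 929 and 1031 ± 661 in the mutant at 0, 24 and 48 h (SD, n = 3 each), against 656 ± 444, 222 ± 225 and 33.7 ± 23.2 in B73. On this scale the mutant at 48 h was at 1.05 times its 0 h mean, while the mutant mean at 48 h was 30.6 times that of B73 and the B73 mean at 48 h was 19.5-fold below its 0 h mean. The mutant log2 difference at 48 h against 0 h, 0.59 as deposited, was -0.26 with library totals and -0.39 with quantile normalization. With library totals the median log2 difference of all genes tested at 48 h against 0 h was -0.63 in the mutant and -0.45 in B73. As deposited that median was -0.03 in both. The mutant at 24 h against 0 h took the other sign, 0.21, without mutant replicate 3 at 24 h, and was -1.11 without mutant replicate 1.

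**Figure D2:**
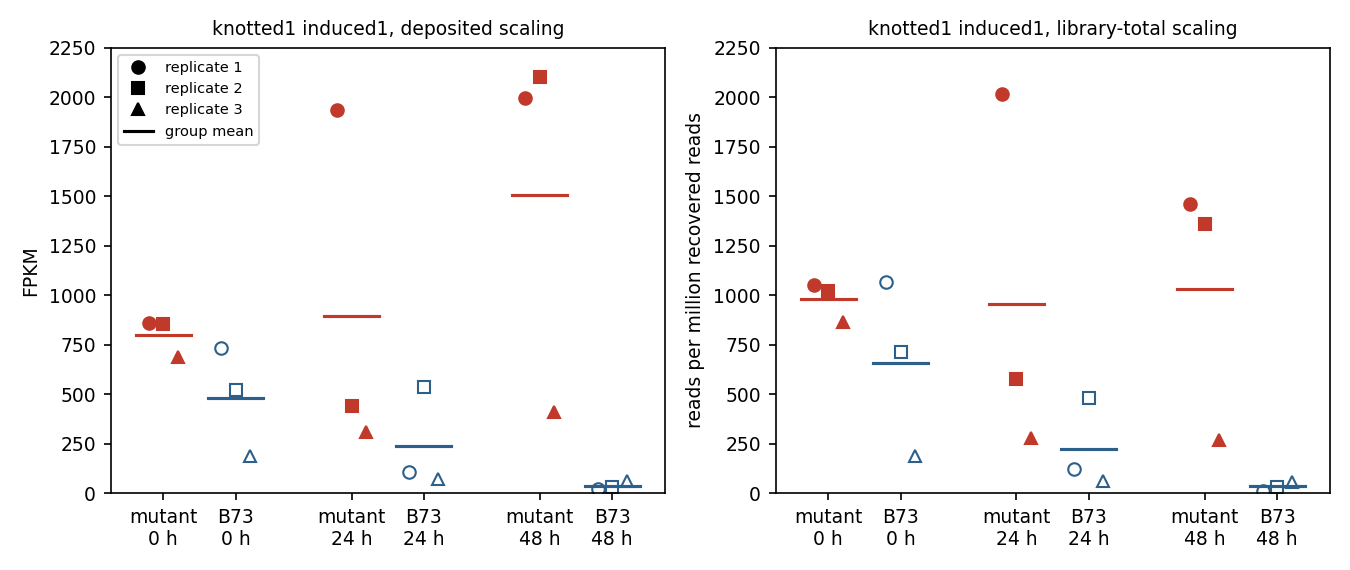
Level of Knotted1 induced1 in each library as deposited (left, FPKM) and against the recovered total (right, RPM), both on linear axes, with points for libraries and lines for group means. The mutant mean at 48 h stands above its 0 h mean on the left (1504 against 801 FPKM) and close to it on the right (1031 against 979 RPM), while the B73 mean at 48 h is lowest on both.

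Of the marker sums in FPKM as deposited, that of the leaf genes separated the genotypes at 48 h and that of dividing cells did not. The summed level of the 42 leaf genes was 45245 to 71975 FPKM in the mutant at 48 h and 34196 to 42560 FPKM in B73 at 48 h, so that these groups did not overlap. The scaling total was 0.672 to 0.759 times the recovered reads in the mutant at 48 h and 0.677 to 1.02 times in B73. The sums were not set against library totals, so the separation is given for the deposited scaling only. The summed level of 129 histone and cyclin genes, marking dividing cells, was 2278 to 3063 FPKM in the mutant and 1435 to 3236 FPKM in B73 at 48 h. The part of the leaf genes' difference in the level of Knotted1 induced1 was not tested. In whole leaves, fewer cells that make a transcript and less transcript per cell cannot be told apart.

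The table held 2 other genes with the ribonuclease T2 family domain. Zm00001d032186, on chromosome 1 at 216168360 to 216169854, is described by its likeness to RNS1, the Arabidopsis ribonuclease made in wounded and phosphate-starved tissue. It had 13.0, 121 and 4.57 FPKM in the mutant at 0 h, 148, 56.2 and 426 FPKM at 24 h, and 519, 755 and 2024 FPKM at 48 h. In B73 it had 8.17, 24.0 and 5.38 FPKM at 0 h, 150, 147 and 83.8 FPKM at 24 h, and 2845, 194 and 255 FPKM at 48 h. In both genotypes all 48 h libraries were above all 0 h libraries. Against 0 h it rose at 48 h by 5.45 on the log2 scale in the mutant (SE 1.12, limma adjusted p = 0.00181) and by 5.52 in B73 (SE 1.12, limma adjusted p = 0.00318), where 36.5% of all genes passed in the mutant and 23.2% in B73. Mutant against B73 it did not pass at any time, with a log2 difference at 48 h of 0.83 (95% interval -1.56 to 3.21, limma adjusted p = 0.782). Its cold change at 48 h differed between the genotypes by -0.07 (95% interval -3.45 to 3.30, limma adjusted p = 0.995), an interval that is wide.

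**Figure D3:**
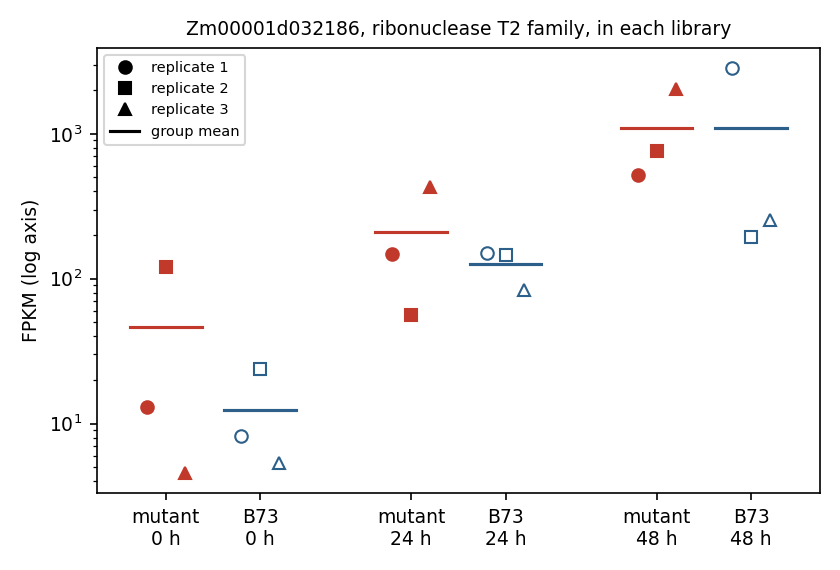
Level of Zm00001d032186, a ribonuclease T2 family gene, in each library, in FPKM on a log axis, with the mutant left of B73 at each time. Points are libraries and lines are group means. At 48 h the mutant libraries (519 to 2024 FPKM) and the B73 libraries (194 to 2845 FPKM) overlap, and both lie above their 0 h libraries.

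The other relative, Zm00001d022228 on chromosome 7 at 173192813 to 173193915, also likened to RNS1, was scarce. At 48 h it had 3.30, 2.97 and 1.25 FPKM in the mutant and 1.04, 0 and 0.0575 FPKM in B73, and at 0 h at most 0.171 FPKM in the mutant and 1.24 FPKM in B73. It rose in the mutant at 48 h against 0 h by 1.61 (SE 0.33, limma adjusted p = 0.00187), and in B73 its log2 difference was -0.41 (limma adjusted p = 0.398). The difference of these changes, 2.02 with a 95% interval of 1.02 to 3.02, did not pass (limma adjusted p = 0.311). Neither did its mutant against B73 difference at 48 h, 1.38 with an adjusted p of 0.101 from limma. As with Knotted1 induced1, all mutant libraries at 48 h lay above all B73 libraries at 48 h, and mutant replicate 3 was the lowest of the mutant. Its correlation with Knotted1 induced1 over the 18 libraries was 0.40, and 0.38 once group means were removed.

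Of the summed FPKM of the 3 family members, Knotted1 induced1 took on average 95.1, 74.5 and 56.6% in the mutant at 0, 24 and 48 h, against 97.1, 55.4 and 11.4% in B73. Single libraries at 48 h ranged from 16.9 to 79.3% in the mutant and from 0.674 to 19.8% in B73. Within both 48 h groups the library lowest in Knotted1 induced1 was the highest in Zm00001d032186. Over all 18 libraries the Pearson correlation of the pair on the log2 scale was -0.22, and -0.16 once group means were removed, a weak relation. Of 2 genes likened to RNS2, the Arabidopsis ribonuclease that turns over ribosomal RNA in the vacuole, Zm00001d042512 had 38.3 to 59.5 FPKM in the mutant at 48 h and 24.6 to 54.5 FPKM in B73 at 48 h. Its correlation with Knotted1 induced1 was -0.04.

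Genes were then ordered by the likeness of their pattern to Knotted1 induced1, as Pearson correlation of log2(FPKM + 1) over 18 libraries. The libraries share groups and scaling, so the values are descriptions. Of 23140 other genes 4 reached 0.8, 21 reached 0.7, and 44 were at -0.7 or below. The most alike was Zm00001d037681 on chromosome 6, described as an acid phosphatase 1, an enzyme class that frees phosphate from organic esters. It had 35.4, 82.2 and 34.7 FPKM in the mutant at 0 h, 115, 28.5 and 12.9 FPKM at 24 h, and 295, 289 and 14.6 FPKM at 48 h. In B73 it had 188, 60.4 and 59.3 FPKM at 0 h, 28.5, 98.3 and 5.65 FPKM at 24 h, and 1.38, 4.15 and 4.93 FPKM at 48 h. The same libraries stood out as for the ribonuclease, with mutant replicate 3 low at 48 h, mutant replicate 1 high at 24 h and B73 replicate 2 high at 24 h. The gene was chosen by its correlation over these libraries, so this follows in part from the choice. The correlation was 0.89 over all libraries, 0.89 with group means removed, 0.95 within the 9 mutant libraries and 0.96 within the 9 B73 libraries. Its mutant mean at 48 h was 57.3 times that of B73, while at 0 h it was 0.495 times, so the acid phosphatase lacked the higher mutant mean that the ribonuclease had at 0 h.

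The second was Zm00001d004348 on chromosome 2, annotated with an agglutinin domain, a sugar-binding fold, with a correlation of 0.83 (0.78 with group means removed). It had 1163, 1177 and 153 FPKM in the mutant at 48 h and 21.2, 41.3 and 24.5 FPKM in B73 at 48 h. Again mutant replicate 3 was the low library, as the choice by correlation favours, and the genotypes did not overlap. At 0 h its means were 230 ± 97.5 FPKM in the mutant and 285 ± 66.1 FPKM in B73 (SD, n = 3 each), which overlapped.

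**Figure D4:**
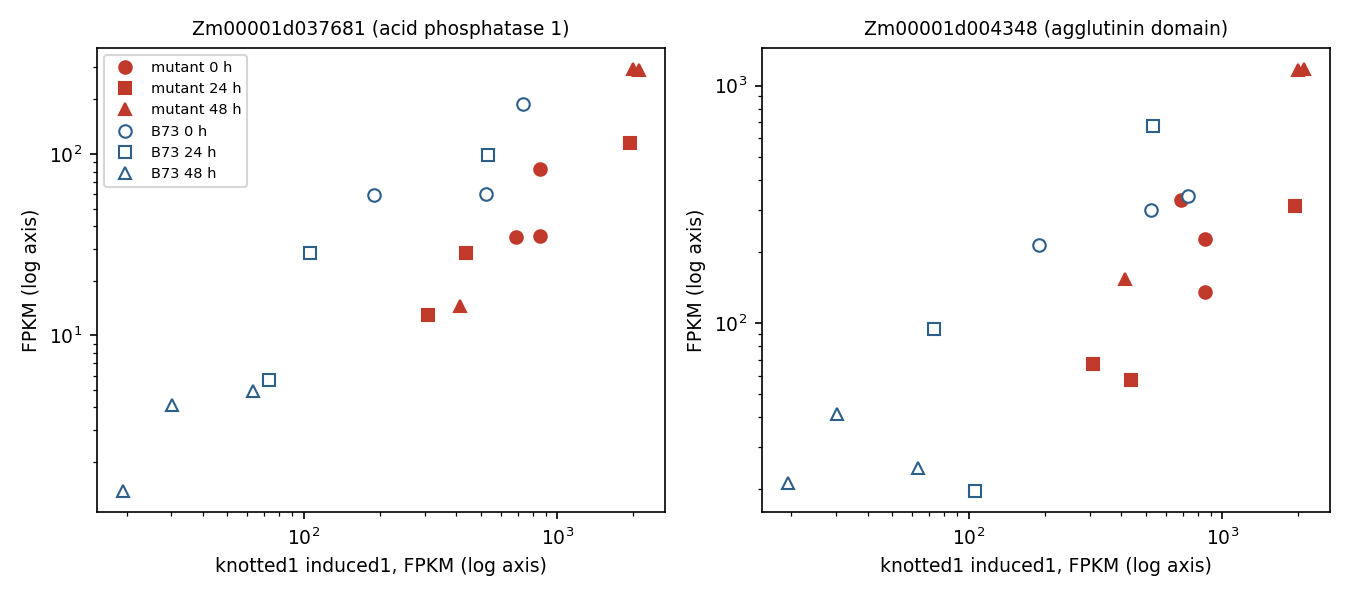
Level of Zm00001d037681 (left) and of Zm00001d004348 (right) against that of Knotted1 induced1, in FPKM on log axes, 1 point per library (n = 18), filled for the mutant and open for B73, with the shape giving the time. Both climb with Knotted1 induced1 (Pearson correlations of 0.89 and 0.83 on the log2 scale), with B73 at 48 h at the low end and 2 mutant libraries at 48 h at the high end.

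The next, Zm00001d053007 and Zm00001d052346, lie on chromosome 4 and carry no description, with correlations of 0.83 and 0.80. Zm00001d053007 had 332, 386 and 1.56 FPKM in the mutant at 48 h and 0, 0.561 and 0.382 FPKM in B73 at 48 h. It was higher in every mutant library than in every B73 library at 0 h too, with 62.2 to 336 FPKM in the mutant and 2.69 to 9.04 FPKM in B73. Zm00001d033948, described as a tubby-like F-box protein, was alike between groups but not within them, with 0.80 over all libraries and -0.13 with group means removed. The remaining 5 were Zm00001d036216, likened to the rice strigolactone signalling F-box protein MAX2, at 0.79, polyamine oxidase1, which oxidizes polyamines in the cell wall, at 0.79, Zm00001d011717, a Rab7-type vesicle GTPase, at 0.78, Zm00001d026457, with no description, at 0.77, and Zm00001d037680 at 0.77. Polyamine oxidase1 had 142, 86.5 and 27.2 FPKM in the mutant at 48 h and 9.44, 15.1 and 15.9 FPKM in B73 at 48 h.

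Zm00001d037680, likened to a soybean vegetative storage protein of the acid phosphatase family, lies 2540 bp from Zm00001d037681. It was alike to Knotted1 induced1 in B73 (0.94 over 9 libraries) and not in the mutant (-0.12 over 9 libraries). At 48 h it had 31.5, 69.5 and 42.9 FPKM in the mutant and 11.8, 7.81 and 32.1 FPKM in B73. The family domain was carried by 8 genes in the table, a set looked up after the values were seen. The next in likeness among them was Zm00001d036978 at 0.46, with 3.45 to 5.81 FPKM in the mutant and 1.40 to 5.66 FPKM in B73 at 48 h.

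At the other end, the 5 lowest correlations ran from -0.81 to -0.89. They belonged to Zm00001d034854 and an added gene model on chromosome 2, both with no description, the mitochondrial ATP synthase subunit gene ZeamMp182, G2-like-transcription factor 33, and ferric-chelate reductase (NADH)2. Most were scarce: Zm00001d034854 had at most 0.570 FPKM in the mutant and 1.10 to 1.54 FPKM in B73 at 48 h. Ferric-chelate reductase (NADH)2 had 10.6 to 12.3 FPKM in the mutant and 16.5 to 18.5 FPKM in B73 at 48 h, and its correlation shrank to -0.41 with library-total scaling.

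The difference between the genotypes was set beside the neighbourhood on chromosome 7. Only 4 tested genes lie beyond Knotted1 induced1 on the chromosome, so the 10 nearest on each side came to 14. By limma, 0 of these 14 passed for mutant against B73 at 0, 24 and 48 h and on average, against 0.212, 0.411, 0.333 and 0.653% of all genes, and 0 had an unadjusted p under 0.05 in any of these comparisons. With limma-voom on recovered reads 0 passed too, and 1 had an unadjusted p under 0.05 at 24 h and 1 at 48 h. Their log2 differences at 48 h ran from -0.64 to 0.52 with a median of -0.04, against a median of 0.04 over all genes. They reached higher in the other comparisons, from -0.28 to 0.90 at 0 h, -0.87 to 1.46 at 24 h and -0.20 to 0.95 on average. The gene before, Zm00001d022629, a proteasome alpha subunit, had 14.1, 8.78 and 11.6 FPKM in the mutant and 11.4, 18.2 and 14.1 FPKM in B73 at 48 h. The gene after, Zm00001d022631, a cyclophilin-type prolyl isomerase, had 1.04, 1.08 and 1.01 FPKM in the mutant and 0.826, 1.35 and 1.33 FPKM in B73 at 48 h. In both pairs the genotypes overlapped.

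**Figure D5:**
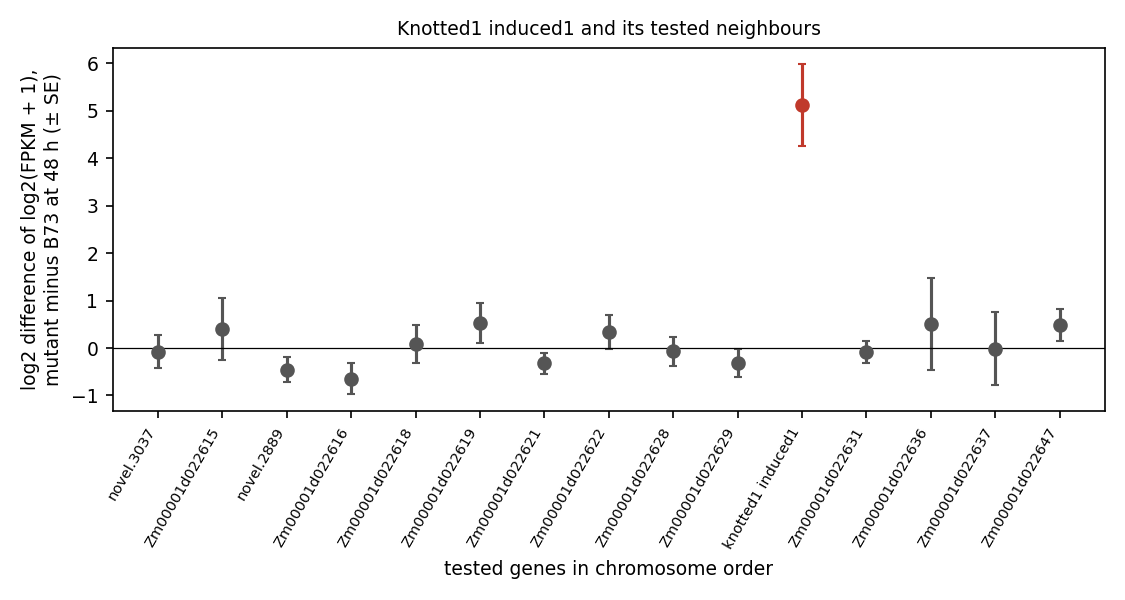
Mutant minus B73 difference at 48 h of log2(FPKM + 1) for Knotted1 induced1 and its 14 nearest tested genes, in chromosome order, with bars of 1 standard error from limma (n = 3 libraries per group). The neighbours lie between -0.64 and 0.52 and Knotted1 induced1 at 5.12.

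Some of these neighbours changed with cold. At 48 h against 0 h 1 rose and 4 fell in the mutant, and 1 rose and 2 fell in B73, where 18.5% of all genes rose and 18% fell in the mutant and 12.7% rose and 10.5% fell in B73. With library totals 1 rose and 7 fell in the mutant, and 1 rose and 5 fell in B73. Of the 23250 genes tested on that scaling, 2309 rose and 8306 fell in the mutant, and 1889 rose and 4952 fell in B73. Both adjacent genes fell, Zm00001d022629 by 1.16 in the mutant and 1.03 in B73 (limma adjusted p = 0.00752 and 0.0216) and Zm00001d022631 by 1.03 in the mutant and 1.04 in B73 (limma adjusted p = 0.00317 and 0.0057). The B73 call of Zm00001d022629 was lost under 4 of 25 alternatives. The gene that rose, Zm00001d022636, likened to the Arabidopsis protein NUCLEAR FUSION DEFECTIVE 4, had 24.7, 61.7 and 285 FPKM in the mutant and 179, 16.2 and 50.9 FPKM in B73 at 48 h. Its mean was 7.34 FPKM in the mutant and 1.93 FPKM in B73 at 0 h, and 8.70 and 2.36 FPKM at 24 h, differences that did not pass. Its rise against 0 h was 3.90 in the mutant and 4.29 in B73 (limma adjusted p = 0.00604 and 0.00596).

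The gene after which Knotted1 induced1 is named was all but unread. Knotted1 (Zm00001d033859) had 1 read over all 18 libraries, at most 0.00622 FPKM. Among its class I relatives rough sheath1 had 3 reads, liguleless4 6 and gnarley1 0 of 307.7 M reads in all. A count of 0 allows up to 3 reads at this depth, counting error only.

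Other genes of the KNOX pathway were taken as 4 lists by name or description. These were KNOX homeobox genes, their BELL partners, repressors of KNOX genes with leaf identity genes, and gibberellin and cytokinin enzymes. The enzymes are of classes with members that KNOX proteins are known to control, and control of each listed gene was not tested. The 4 lists held 94 genes, of which 51 were tested. Mutant against B73, 0 rose, and 2 fell at 0 h, 3 at 24 h, 2 at 48 h and 3 on average. Of all genes 0.16, 0.212, 0.255 and 0.393% rose and 0.0519, 0.199, 0.0778 and 0.259% fell in these comparisons. No KNOX homeobox gene was among them, and the 6 tested had log2 differences of -0.06 to 1.46 at 48 h with a median of 0.22, against 0.04 over all genes.

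Those that fell on average were Zm00001d013661 and Zm00001d013663, both described as YABBY 2, a class of leaf polarity genes, and Homeobox-transcription factor 37 (Zm00001d013547), a BELL-type gene, and all 3 lie on chromosome 5. Zm00001d013661 was at 0 FPKM in all 9 mutant libraries and at 1.75, 2.15 and 1.42 FPKM in B73 at 0 h, 4.51, 3.75 and 3.15 FPKM at 24 h, and 1.31, 0.845 and 3.14 FPKM at 48 h. Zm00001d013663 was at 0 FPKM in all 9 mutant libraries as well and at 0 to 3.87 FPKM in B73. On average over the times both passed (limma adjusted p = 1.3e-05 and 0.000742), and no fold is given against a group at 0. Homeobox-transcription factor 37 had 3.38, 4.36 and 3.94 FPKM in the mutant and 18.7, 15.8 and 18.1 FPKM in B73 at 48 h, so that the genotypes did not overlap. Mutant against B73 it was lower by 1.92 at 48 h (SE 0.24, limma adjusted p = 0.00209), a call lost under 1 of 25 alternatives. The same difference was -1.20 at 0 h and -1.07 at 24 h (limma adjusted p = 0.0618 and 0.0698). Gibberellin 2-oxidase10, of the class that inactivates gibberellins, had 1.29, 0.285 and 0.582 FPKM in the mutant and 4.71, 4.85 and 5.50 FPKM in B73 at 24 h. Mutant against B73 it was lower by 1.85 at 24 h (SE 0.37, limma adjusted p = 0.0393). This call was lost under 17 of 25 alternatives, with adjusted p-values of 0.0225 to 0.191. Against 0 h, its log2 difference at 24 h was 1.97 in B73 and 0.14 in the mutant (limma adjusted p = 0.00387 and 0.847).

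With cold, 1 listed gene rose and 3 fell in the mutant at 24 h, and 15 rose and 7 fell at 48 h, while in B73 8 rose and 0 fell at 24 h, and 7 rose and 3 fell at 48 h. Among all genes 9.58% passed in the mutant at 24 h (3.76% rose and 5.82% fell) and 9.35% in B73 at 24 h (5.26% rose and 4.09% fell), and at 48 h 36.5% passed in the mutant and 23.2% in B73. At 48 h 22 of the 51 listed genes passed in the mutant and 10 of 51 in B73. The split depends on the scaling. With library totals 46 listed genes were tested. Of these 10 rose and 13 fell in the mutant and 4 rose and 9 fell in B73 at 48 h. Of the 23250 genes tested on that scaling, 2309 rose and 8306 fell in the mutant, and 1889 rose and 4952 fell in B73. The 24 h count in the mutant was 4 in all and 10 without mutant replicate 2 at 24 h, the library that stood apart. For a difference in the cold change between the genotypes, 0 listed genes passed by limma at 24 or 48 h. An unadjusted limma p under 0.05 was reached by 7 and 6 of them. Of all genes 0.00432 and 0.00864% passed, so a gene that did not pass may still differ.

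Gibberellin 2-oxidases, which inactivate gibberellins, were counted as a class after their values were seen. The table held 16, and 11 were tested, of which 5 rose and 2 fell in the mutant at 48 h, and 2 rose and 0 fell in B73. Of all genes 18.5% rose and 18% fell in the mutant, and 12.7% rose and 10.5% fell in B73. At 24 h 1 rose and 1 fell in the mutant, while 4 rose and 0 fell in B73. The shares of all genes at 24 h are given above. With library totals 9 were tested, of which 4 rose and 2 fell in the mutant and 2 rose and 1 fell in B73 at 48 h. The counts of all genes on that scaling are given above. Gibberellin 2-oxidase3 had 188, 259 and 451 FPKM in the mutant at 48 h against 0.849, 0.552 and 1.14 FPKM at 0 h, and 843, 43.2 and 110 FPKM in B73 at 48 h against 3.97, 1.68 and 0.778 FPKM at 0 h. It rose by 7.26 in the mutant and by 5.81 in B73 (limma adjusted p = 4.5e-05 and 0.000494). Gibberellin 2-oxidase6 rose by 4.74 in the mutant and 5.33 in B73 at 48 h (limma adjusted p = 0.00271 and 0.0024). Gibberellin 2-oxidase9 fell by 1.34 in the mutant (limma adjusted p = 0.0347), a call lost under 8 of 25 alternatives. Gibberellin 2-oxidase10 did not pass at 48 h, with log2 differences of 0.72 in the mutant and 0.76 in B73 (limma adjusted p = 0.135 and 0.146). Gibberellin 20-oxidase1, which acts in gibberellin synthesis, fell by 1.68 in the mutant and 1.55 in B73 at 48 h (limma adjusted p = 0.00609 and 0.0153).

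Of the 6 KNOX homeobox genes tested, 2 rose in the mutant at 48 h, where 18.5% of all genes rose, and 0 passed in B73 by limma, with an unadjusted p under 0.05 in 1. With library totals neither of these 2 passed, and of the 5 genes then tested 0 rose and 2 others fell in the mutant, while 0 rose and 2 fell in B73. The counts of all genes on that scaling are given above. With limma-voom on recovered reads 0 passed in either genotype, with an unadjusted p under 0.05 in 2 in the mutant and 0 in B73. Knotted related homeobox1 had 20.6, 21.8 and 20.2 FPKM in the mutant at 48 h against 2.50, 1.47 and 13.2 FPKM at 0 h, and 5.64, 14.7 and 3.78 FPKM in B73 at 48 h against 2.31, 1.02 and 4.02 FPKM at 0 h. It rose by 2.13 in the mutant (SE 0.76, limma adjusted p = 0.0382), a call lost under 9 of 25 alternatives. The other was Homeobox-transcription factor 20, with a rise of 1.63 (limma adjusted p = 0.015), lost under 4 of 25 alternatives with adjusted p-values of 0.00474 to 0.0732. Knotted related homeobox1 had a correlation of 0.11 with Knotted1 induced1 over the 18 libraries. Among the BELL partners Homeobox-transcription factor 123 rose at 48 h by 3.01 in the mutant and 2.99 in B73 (limma adjusted p = 0.00104 and 0.0021). Of the leaf identity genes yabby15 rose at 48 h by 4.28 in the mutant and 3.93 in B73 (limma adjusted p = 5e-05 and 0.000215), and indeterminate gametophyte1 fell by 1.09 in B73 (limma adjusted p = 0.00676). Isopentenyl transferase1, annotated as an enzyme that modifies tRNA, fell by 2.03 in the mutant at 48 h (limma adjusted p = 0.000922).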

How the data were processed

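Leaf RNA was sequenced as directional poly(A) libraries, per the labels' protocols. The authors deposited FPKM per gene. Tools named in the submitters' processing notes, without their roles, are DESeq2 1.20.0, featureCounts 1.5.0-p3, HISAT2 2.0.5 and fastp. Their settings, whether counting used strand, and the build are not given in these sources. All deposited FPKM values were whole multiples of 1 read (100% within 0.01 reads), so whole reads were recovered, 14.8 to 19.1 M per library. The scaling total differed from these reads, which can shift all genes of a library. Replicates differed beyond sampling noise (chi-square of 38.1 or more per gene).

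Groups, times and replicates came from titles. For mutant replicates 2 and 3 at 24 and 48 h another field gives 0 h and was not used. The treatment field names 4 °C at 0 h too, and 0 h was taken as before cold.

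The 23141 genes that reached 1 FPKM in 3 or more libraries were fitted on log2(FPKM + 1), a scale that understates changes of low genes, with limma 3.58.1 in R 4.3.3 (6 group means, 12 residual degrees of freedom, eBayes with trend, two-sided, Benjamini-Hochberg over all genes, threshold 0.05). The fit was tested on simulated data at a lower and a higher dispersion, and recovered fewer of the changed genes at the higher one. The members, lists and naming rules were chosen with earlier results of these data known, and the tests of the difference between genotypes in the cold change, and the acid phosphatase set, were added after seeing the data. Named genes are Knotted1 induced1, its domain relatives, the 10 highest and 5 lowest correlations, adjacent genes, the main called members of each list, and the top marker; others were picked after their values were seen. Names and coordinates are as the deposited table gives them. Alternatives tried were quantile normalization, library totals, a pseudocount of 0.1, no filter, the replicate block, limma-voom with TMM on recovered reads, only the compared libraries, each library left out, 25 neighbours a side, and Spearman rho.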

Additional observations from a re-analysis of the deposited data

How the results depend on the processing

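The genotype differences of Knotted1 induced1 kept their sign under every alternative run, and without 1 library they ranged from 0.36 to 1.34 at 0 h, 1.19 to 2.85 at 24 h, 4.72 to 5.90 at 48 h and 2.42 to 2.97 on average, as mutant minus B73 on the log2 scale. Against 0 h they ranged in the mutant from -1.11 to 0.21 at 24 h and 0.19 to 1.36 at 48 h, and in B73 from -2.24 to -0.81 at 24 h and -4.17 to -3.19 at 48 h. The mutant at 48 h against 0 h changed sign with library totals and with quantile normalization, as given above. The neighbours called for mutant against B73 stayed at 0 in every comparison under every alternative but 1. With 25 a side 1 passed on average, Zm00001d022602, higher in the mutant by 0.79 (limma adjusted p = 0.0404). Of the listed pathway genes, mutant against B73, 1 passed at 0 h, 0 at 24 h and 0 at 48 h with only the compared libraries, and 1 at 48 h with library totals. The mutant at 24 h against 0 h gave 1 with only the compared libraries. Without 1 library the pathway counts were 0 to 2 at 0 h, 2 to 4 at 24 h, 1 to 2 at 48 h and 3 on average for mutant against B73, 1 to 10 at 24 h and 15 to 23 at 48 h in the mutant, and 4 to 11 at 24 h and 6 to 12 at 48 h in B73. The lowest B73 count at 24 h was without B73 replicate 2 at 24 h, and that at 48 h without B73 replicate 1 at 48 h or B73 replicate 2 at 0 h. The cause was not tested. Of 68 called changes of single genes, 31 held under every alternative, 37 were lost under at least 1 and 0 turned round. Of the 10 genes most alike, 5 were shared with Spearman rho and 9 each with a pseudocount of 0.1 and with library totals.

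Same-numbered replicates deviated together in some comparisons and apart in others (correlations of -0.50 to 0.56, over 0.1 in 7 of 21 pairs). Mutant against B73, the correlations were 0.56 and 0.52 for replicates 2 and 3 at 0 h, and -0.50 and -0.48 for replicates 1 and 2 at 24 h. Each group holds each replicate number once, so a replicate block leaves differences of group means as they are (5.12 for Knotted1 induced1 at 48 h) and says nothing there of pairing. With the block the pathway calls were 2 in place of 3 for mutant against B73 at 24 h, and in B73 7 in place of 8 at 24 h and 11 in place of 10 at 48 h. With 3 libraries a group and a within-group SD of 1.14, the spread between replicates, not depth, limits the precision.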
